A study of Rattus norvegicus with 12 samples.

Results

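Transcript levels of 9 genes of the ATF4 pathway were followed in rat liver cells deprived of arginine: the transcription factors Atf4, Atf5, Atf3, Ddit3, Cebpb and Cebpg, and the regulators Trib3, Nupr1 and Chac1. The 9 genes were chosen with earlier results of these data known. Each was read through every probe set whose array annotation gives that gene as its only symbol, without regard to its signal. This gave 12 probe sets of the 15866 that are not controls, for 9 of 10411 genes. All 12 passed the filter on low signals, which kept 9745 probe sets, but Atf3 passed it through arginine-deficient arrays alone and is therefore left out of the counts and medians of genes that rose. The 4 groups were GP7TB cells (tumor cells) without arginine, GP7TB cells with arginine, WB-F344 cells (normal cells) without arginine and WB-F344 cells with arginine, with 3 independent cultures in each and 1 Affymetrix RAE230A array per culture. WB-F344 is a diploid rat liver cell line. GP7TB is its malignant counterpart, obtained with a chemical carcinogen and tumorigenic in rat liver. Each cell type was thus represented by 1 line. All 4 groups were kept for 18 hours in Chee's Essential Medium with 5% fetal bovine serum, with arginine (0.168 g/l) or without it, and since the serum had not been dialysed, arginine was scarce rather than absent.

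ATF4 is a basic leucine zipper (bZIP) protein that is made mainly when cells slow translation. Uncharged tRNA, as in amino acid shortage, activates the kinase GCN2, which phosphorylates the translation factor eIF2. General protein synthesis then falls while ATF4 mRNA is translated more, and ATF4 binds composite C/EBP-ATF elements of genes for amino acid uptake and synthesis, for tRNA charging and for the factors that carry or restrain the response. In liver the same pathway answers dietary shortage of single amino acids. The arrays measured mRNA only, so neither eIF2 phosphorylation nor ATF4 protein was observed.

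Values are Microarray Suite 5.0 signals, a linear scale in arbitrary units on which each array has the same trimmed mean, and differences are log2 changes from limma with their standard error (SE, n = 3 arrays per group). Adjusted p-values cover all 9745 probe sets, and a gene is said to have risen or fallen only at an adjusted p under 0.05. A signal counted as expressed above 146 to 191, depending on the array. The arrays of tumor cells were scanned on 1 day and those of normal cells on 3 other days, and the lines shared no chip lot. An effect of line can therefore not be told apart from one of scan day or chip lot when levels are compared between the lines. The arginine-sufficient normal array of experiment 2 had a scan day and a chip lot of its own. In tumor cells, the run records note trypsin treatment of the cultures of experiments 1 and 3 and none for both arrays of experiment 2. The 3' to 5' ratio of Gapdh, which falls with better RNA, was 0.998 to 1.38 and higher in the arginine-deficient array of all 6 pairs. That of Actb was 1.0 to 1.63 and higher there in 2 of the 6, and the part of either in the results was not tested. Of 9 hepatocyte markers on the array, Alb, Apoa1, Ttr, Serpina1, Ahsg, Fgb and Hnf4a did not pass the filter. The other 2 passed. Both were above the threshold on all 3 arrays of arginine-deficient tumor cells, and 0 were on all 3 arrays of any other group. Summed over all probe sets of the 9 markers, signals were 1160 to 1500 in arginine-deficient and 1170 to 1290 in arginine-sufficient tumor cells. In normal cells they were 748 to 1060 without arginine and 1020 to 1260 with it, so the sums of several groups overlapped. Of 7 liver epithelial and biliary markers 2 passed, and both were above the threshold on all arrays, while Krt18, Krt19, Epcam, Cdh1 and Cldn4 did not pass. Of 7 mesenchymal markers 5 passed, of 5 macrophage markers 1 and of 4 endothelial markers 0. From bulk RNA, fewer cells that express a gene and less of its RNA per cell cannot be told apart.

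In tumor cells, 5 of the 8 genes other than Atf3 rose without arginine (Trib3, Nupr1, Chac1, Atf5 and Atf4) and none fell, against 0.965% of all tested probe sets that rose. In normal cells, 3 of the 8 rose (Trib3, Nupr1 and Chac1), against 0.133% of all tested. Because the genes were chosen with earlier results of these data known, the shares beside these counts are a description and no test. The median log2 change of the 8 genes was 1.44 in tumor cells and 1.08 in normal cells, beside -0.05 in tumor cells and -0.04 in normal cells over all tested probe sets. Each of the 8 genes had a higher signal in the arginine-deficient array than in its partner in all 6 experiments, which 6.96% of all tested probe sets did. When the experiment was fitted as a block, 8 of 8 genes rose in tumor cells (4.79% of all tested) and 7 of 8 in normal cells (1.39% of all tested), all but Cebpb.

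**Figure D1:**
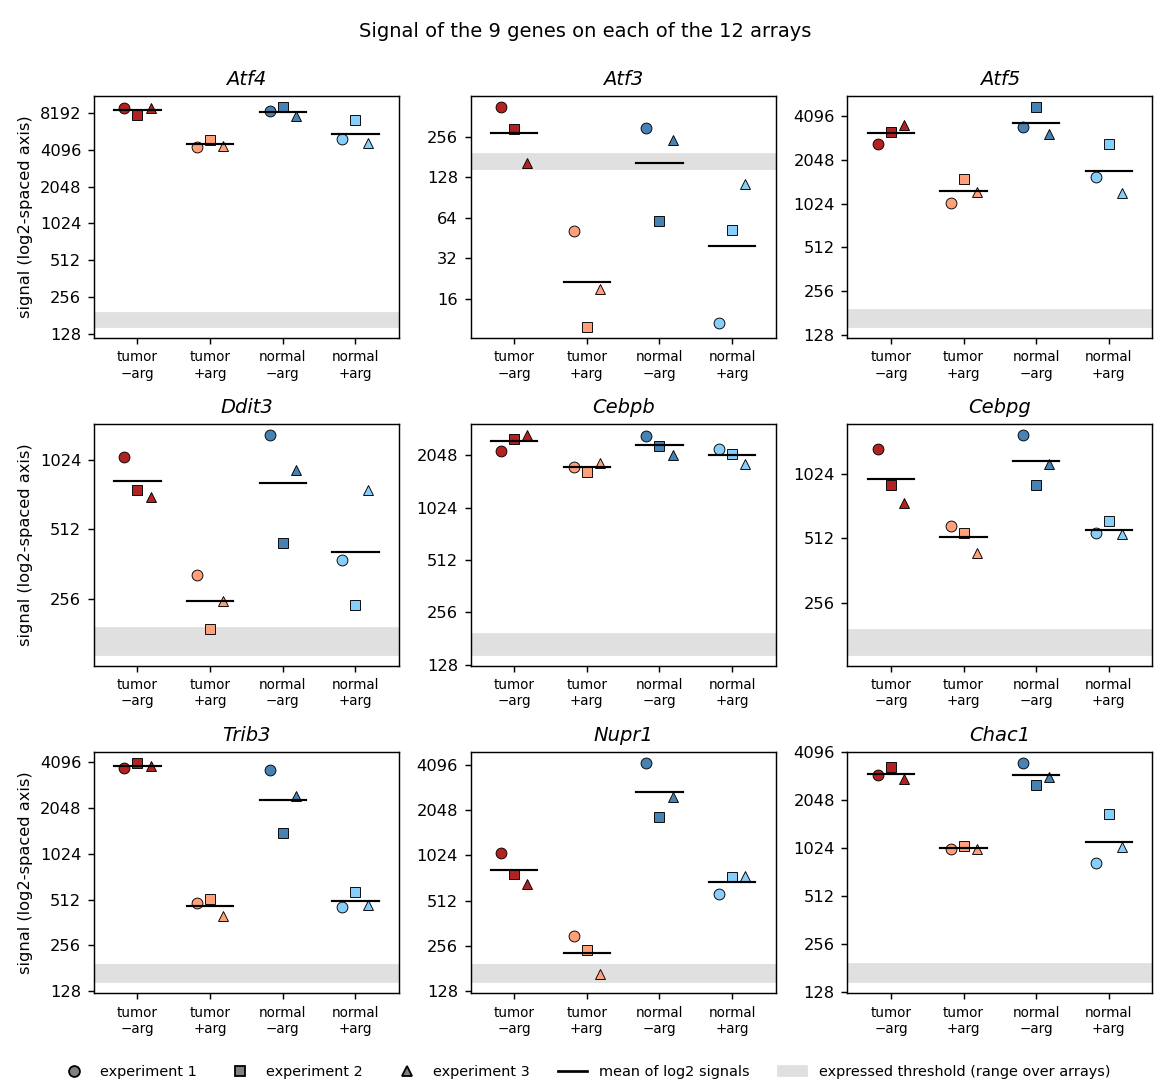
Signal of each gene's main probe set on the 12 arrays, on an axis spaced by log2, with 1 point per array, marker shape for the experiment and a line at the mean of the log2 signals in each group; the grey band is the expressed threshold over the arrays. Leaving out Atf3, which passed the filter only where it was high, the arginine-deficient and arginine-sufficient arrays of tumor cells are separate for 8 of 8 genes (9.69% of all tested probe sets). Those of normal cells are separate for 6 of 8 (6.18% of all tested) and overlap for Ddit3 and Cebpb.

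Trib3 encodes a pseudokinase that binds ATF4 and dampens its activity, and it had the largest change of the 9 genes in normal cells. On its brightest probe set, Trib3 signals were 3751, 4063 and 3863 in arginine-deficient tumor cells (experiments 1, 2 and 3) and 484, 520 and 399 in arginine-sufficient tumor cells. In normal cells they were 3627, 1413 and 2447 without arginine, against 457, 575 and 475 with it. No arginine-deficient array came near any arginine-sufficient one, and arginine-deficient tumor arrays were close to each other whereas those of normal cells spread widely. The log2 change of Trib3 was 3.07 ± 0.27 in tumor cells (adjusted p = 0.000103), which is 8.38-fold, and 2.22 ± 0.27 in normal cells (adjusted p = 0.00371), which is 4.65-fold. These were the changes ranked 3 and 7 from the top of 9745. The other probe sets of Trib3 gave 2.91 and 2.46 in tumor cells, and 2.12 and 1.86 in normal cells, all past the threshold. Of the 3 probe sets, 2 were designed from the same rat sequence record, so they are not independent readings, and 2 are of the type that can bind more than 1 transcript. Trib3 (chr3:161269939-161275533 in the rat build GRCr8 of RefSeq) was the only one of the 9 genes that rose in both lines whichever single array was left out.

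Nupr1 encodes a small chromatin-associated protein induced by many stresses. Nupr1 signals were 1066, 769 and 658 in arginine-deficient tumor cells, against 300, 242 and 166 in arginine-sufficient tumor cells. In normal cells they were 4223, 1837 and 2511 without arginine and 568, 731 and 745 with it. The lines kept apart throughout: the lowest normal array in either medium was above the highest tumor array in the same medium. Nupr1 rose by 1.83 ± 0.30 in tumor cells (3.55-fold, adjusted p = 0.0113) and by 1.99 ± 0.30 in normal cells (3.98-fold, adjusted p = 0.0213). The call in tumor cells was lost without the arginine-deficient array of experiment 2 (adjusted p = 0.0578), and that in normal cells without any 1 of 5 arrays, at adjusted p of 0.0504 to 0.12. The gene lies at chr1:190643866-190645901.

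Chac1 encodes a gamma-glutamylcyclotransferase that breaks down glutathione and acts downstream of ATF4. Chac1 signals were 2935, 3295 and 2771 in arginine-deficient tumor cells and 1004, 1046 and 1010 in arginine-sufficient tumor cells, so that the replicates of each medium nearly coincided. Normal cells had 3503, 2524 and 2834 without arginine, against 821, 1670 and 1031 with it. The high array of the arginine-sufficient normal group was that of experiment 2, the one with a scan day and lot of its own. Chac1 (chr3:126796131-126799352) rose by 1.55 ± 0.22 in tumor cells (2.93-fold, adjusted p = 0.00502) and by 1.38 ± 0.22 in normal cells (2.61-fold, adjusted p = 0.035). It kept its call in tumor cells whichever array was left out, but in normal cells it lost it without any 1 of 9 arrays (adjusted p of 0.0521 to 0.188).

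The promoters of the 9 genes were searched for the C/EBP-ATF composite element because ATF4 is known to bind it. The windows were 250 bases before to 50 after the annotated start in RefSeq (GRCr8), and 8 of the 9 genes had one, all but Atf3. The letters searched were TGATGNAA on both strands, so TTNCATCA on the gene's strand when the match is on the other one. They occurred in 3 of the 8 windows, those of Trib3, Nupr1 and Chac1, and in 3.98% of 33469 promoter windows of the rat. The stretches around these matches are shown 5′ to 3′ on the gene's strand with the match in capitals, so that its letters and distance from the start can be compared:
Trib3: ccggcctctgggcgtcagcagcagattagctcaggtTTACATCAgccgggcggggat
Nupr1: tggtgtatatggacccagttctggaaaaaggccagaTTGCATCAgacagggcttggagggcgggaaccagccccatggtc
Chac1: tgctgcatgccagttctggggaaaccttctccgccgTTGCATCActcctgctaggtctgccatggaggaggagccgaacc
They lie at chr3:161275534-161275590 (Trib3, minus strand), chr1:190645913-190645992 (Nupr1, minus strand) and chr3:126795928-126796007 (Chac1, plus strand). The matched letters are TTACATCA in Trib3 and TTGCATCA in both Nupr1 and Chac1. Counted from the start site, they sit at -21 to -14 in Trib3, at -55 to -48 in Nupr1 and at -167 to -160 in Chac1. The cAMP response element TGACGTCA, which reads the same on both strands, was in 0 of the 8 windows and in 1.83% of all. Of a list of ATF4 targets named from general knowledge, 11 of 34 genes with a window held TGATGNAA. A match is a description of letters, and binding was not measured.

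Atf4 itself, whose mRNA level is only one layer of its control, was among the smaller responses. Atf4 signals were 8943, 7842 and 9007 in arginine-deficient tumor cells and 4275, 4950 and 4386 in arginine-sufficient tumor cells. Normal cells had 8450, 9098 and 7698 without arginine, against 5002, 7198 and 4652 with it. The groups did not overlap within either line, although the arginine-sufficient normal array of experiment 2 lay far above its 2 partners. Atf4 (chr7:113684681-113686739) rose by 0.92 ± 0.17 in tumor cells (1.90-fold, adjusted p = 0.0168), a call lost without any 1 of 4 tumor arrays (adjusted p of 0.0531 to 0.076). Its log2 change in normal cells was 0.61 ± 0.17 (1.52-fold, adjusted p = 0.264), which passed only with the experiment as a block (adjusted p = 0.0318). A 2-fold ratio was reached in 4 of the 9 array comparisons of tumor cells and 0 of the 9 of normal cells.

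Atf5, a bZIP factor whose mRNA, like that of Atf4, carries upstream reading frames that let it be translated when eIF2 is phosphorylated, followed Atf4 closely. Atf5 signals were 2634, 3188 and 3557 in arginine-deficient tumor cells and 1030, 1517 and 1226 in arginine-sufficient tumor cells. Normal cells had 3449, 4674 and 3048 without arginine and 1567, 2626 and 1218 with it. Both arrays of experiment 2 were the highest of their groups in normal cells. Atf5 (chr1:104432094-104437611) rose by 1.32 ± 0.26 in tumor cells (2.50-fold, adjusted p = 0.0245), a call lost without any 1 of 5 tumor arrays (adjusted p of 0.0552 to 0.107). Its change in normal cells was 1.10 ± 0.26 (2.14-fold, adjusted p = 0.155), and it passed with the experiment as a block (adjusted p = 0.00334), with the scan day as a block (adjusted p = 0.0344) and when the arginine-sufficient array of experiment 2 was left out (adjusted p = 0.0271).

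Atf3, a stress-induced bZIP factor that can repress its targets, had low signals in most arrays, and its values are given as a description. Atf3 signals were 422, 292 and 164 in arginine-deficient tumor cells, against 50.8, 9.9 and 18.8 in arginine-sufficient tumor cells. Normal cells had 295, 60.2 and 241 without arginine, against 10.6, 52.0 and 114 with it. It was above the expressed threshold on 3 arrays of arginine-deficient tumor cells and 2 of arginine-deficient normal cells, and on 0 arrays with arginine. Atf3 (chr13:105274103-105331653) had a fitted log2 change of 3.69 ± 0.87 in tumor cells. Its adjusted p was 0.0488 among the probe sets that passed the filter, which Atf3 passed only where it was high, and adjusted p was 0.0697 with no filter. It was 0.0529 to 0.206 when any 1 of 9 arrays was left out. Since all its arginine-sufficient signals were under the threshold, the size of this change is not well set: with such signals raised to the threshold it was 0.71 (adjusted p = 0.209). In normal cells the log2 change was 2.03 ± 0.87 (adjusted p = 0.481), with 4.80, 0.21 and 1.08 in experiments 1, 2 and 3.

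Ddit3 encodes CHOP, a C/EBP-related factor tied to cell death under prolonged stress. Ddit3 signals were 1051, 759 and 702 in arginine-deficient tumor cells and 325, 189 and 251 in arginine-sufficient tumor cells. Normal cells had 1309, 444 and 928 without arginine and 375, 240 and 757 with it. The tumor groups were well apart, but in normal cells the arginine-sufficient array of experiment 3 exceeded the arginine-deficient array of experiment 2. The log2 change of Ddit3 (chr7:65001695-65006517) was 1.73 ± 0.42 in tumor cells (3.31-fold, adjusted p = 0.0523), just short of the threshold, and it passed with the experiment as a block (adjusted p = 0.00131). In normal cells it was 0.99 ± 0.42 (1.99-fold, adjusted p = 0.469), and adjusted p was 0.0493 with the block. The probe set is of the type that binds alternative transcripts of 1 gene.

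Of the C/EBP family members, which pair with ATF4 and with CHOP, neither passed in either line in the fit used for the other genes. Cebpb signals, of a factor prominent in liver regeneration and the acute phase response, were 2182, 2563 and 2683 in arginine-deficient tumor cells and 1766, 1639 and 1863 in arginine-sufficient tumor cells. In normal cells Cebpb had 2665, 2334 and 2053 without arginine and 2243, 2086 and 1834 with it, groups that overlapped. Its log2 change was 0.49 ± 0.16 in tumor cells (1.41-fold, adjusted p = 0.138, and adjusted p = 0.0205 with that block) and 0.19 ± 0.16 in normal cells (1.14-fold, adjusted p = 0.758). No array comparison of either line reached a 2-fold ratio for Cebpb (chr3:176817005-176818436).

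Cebpg encodes a small C/EBP protein that lacks an activation domain of its own and forms a dimer with ATF4. Cebpg signals were 1332, 906 and 752 in arginine-deficient tumor cells and 587, 540 and 439 in arginine-sufficient tumor cells. Normal cells had 1556, 913 and 1140 without arginine and 540, 615 and 535 with it, so the groups were apart in both lines. The log2 change was 0.90 ± 0.24 in tumor cells (1.87-fold, adjusted p = 0.0708) and 1.06 ± 0.24 in normal cells (2.09-fold, adjusted p = 0.122). The change in tumor cells passed with median centring (0.98, adjusted p = 0.0413), and both passed with the experiment as a block, at adjusted p = 0.00905 in tumor cells and adjusted p = 0.0152 in normal cells. A second, dimmer probe set of Cebpg (chr1:96820981-96829736) gave 0.72 in tumor cells, where its groups overlapped, and 0.61 in normal cells, neither past the threshold.

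**Figure D2:**
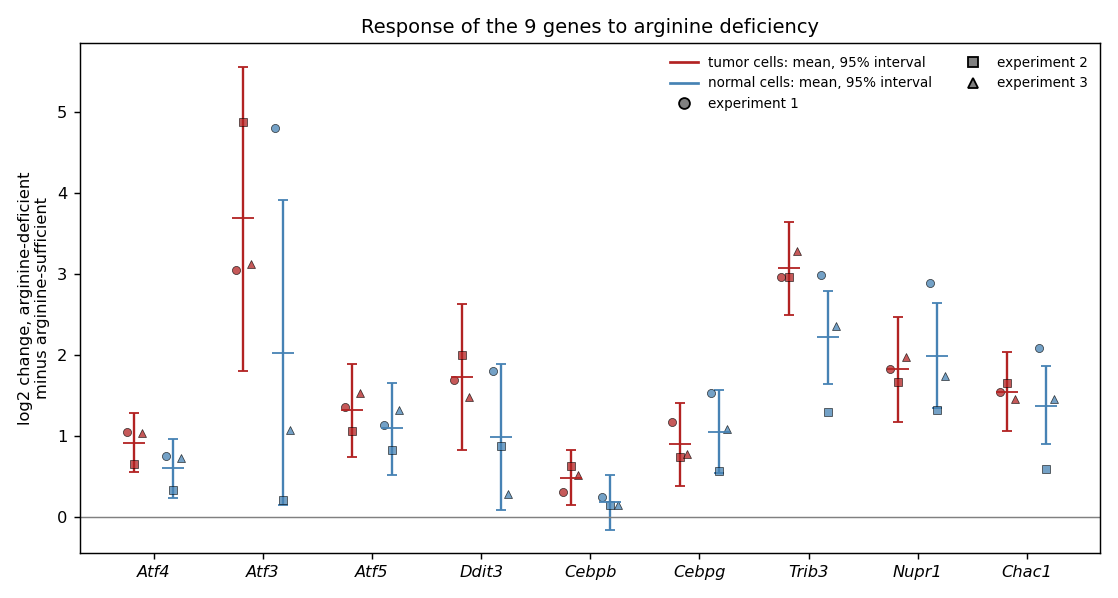
Log2 change of each gene's main probe set, arginine-deficient minus arginine-sufficient, with the mean and its 95% interval from limma as bars (tumor cells left, normal cells right) and the 3 experiments as points. All points of the 8 genes other than Atf3 lie above 0, as those of 6.96% of all tested probe sets would. Experiment 2 is the lowest point of normal cells for 8 of the 9 genes, equal to experiment 3 to 2 decimals for Cebpb.

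The experiments differed more in normal than in tumor cells. The median of the 8 genes' log2 ratios in experiments 1, 2 and 3 was 1.46, 1.36 and 1.48 in tumor cells, against 1.66, 0.72 and 1.2 in normal cells. In normal cells, experiment 2 had the lowest ratio for 8 of the 9 genes, counting Cebpb, where it equalled experiment 3 to 2 decimals, and Ddit3 was lowest in experiment 3. Over all tested probe sets, 1.13% were at least 2-fold higher without arginine in experiment 2 of normal cells, against 2.92% in experiment 1 and 2.81% in experiment 3. The arginine-deficient normal array of that experiment was the lowest of its group for Trib3, Nupr1, Chac1, Cebpg, Atf3 and Ddit3, but the highest for Atf4 and Atf5, whose arginine-sufficient partner was the highest of its group too. Within the 2 scan days of normal cells that hold both media, the log2 change was 2.31 and 2.36 for Trib3, 2.29 and 1.75 for Nupr1, 1.86 and 1.46 for Chac1, 1.36 and 1.32 for Atf5, and 0.81 and 0.73 for Atf4. Ddit3 and Atf3 were less even, at 1.02 and 0.29 for Ddit3 and at 3.65 and 1.08 for Atf3. Within the 2 chip lots of tumor cells it was 2.85 and 3.17 for Trib3, 1.49 and 1.59 for Chac1, 2.14 and 1.67 for Nupr1, and 0.85 and 0.96 for Atf4. Other genes were less even between the lots, with 0.80 and 1.58 for Atf5, 2.47 and 1.36 for Ddit3, 1.3 and 0.70 for Cebpg and 5.41 and 2.82 for Atf3. For each gene, the first of these values compares 1 arginine-deficient array of experiment 1 with 1 arginine-sufficient array of experiment 2. These arrays also differ in the note on trypsin treatment. Chip lot, experiment and trypsin treatment can therefore not be told apart in the values by lot. With the lot as a block, Atf3 did not pass in tumor cells (adjusted p = 0.0834).

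The calls rested on few arrays. In tumor cells the count of 5, or 6 with Atf3, fell to 2 once the arginine-deficient array of experiment 2 was left out. It was 3 when the array left out was the arginine-sufficient one of experiment 1 or 2 or the arginine-deficient one of experiment 3. Atf3 passed in none of these settings. Without both arrays of experiment 2, those with no trypsin step, it was 1, that of Trib3. In normal cells the count of 3 became 1 without either array of experiment 1, either array of experiment 3 or the arginine-deficient tumor array of experiment 2, which enters through the shared estimate of spread. Leaving out a whole experiment was chosen after the data were seen. By the rule of a 2-fold ratio in at least 6 of 9 array comparisons, 5 of the 8 genes were higher in tumor cells (Trib3, Nupr1, Chac1, Ddit3 and Atf5), which 1.08% of all tested probe sets were. By the same rule 3 were higher in normal cells (Trib3, Nupr1 and Chac1), against 0.77% of all tested. The deficient and sufficient arrays did not overlap for 8 of 8 genes in tumor cells (9.69% of all tested) and for 6 of 8 in normal cells (6.18% of all tested).

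None of the 9 genes passed the test of a different response between the lines. The difference of the log2 changes, tumor minus normal, passed for 0 of the 9 genes and for 0.0% of all tested probe sets, where 268 were higher and 282 lower at an unadjusted p under 0.05. Trib3 had the only interval among the 9 that left out 0, with 0.85 (95% interval 0.04 to 1.66, unadjusted p = 0.0405, adjusted p = 0.853). For Nupr1 the difference was -0.17 (-1.08 to 0.75), for Chac1 0.17 (-0.51 to 0.85) and for Cebpg -0.16 (-0.88 to 0.56). Those of Atf4 and Atf5 were 0.32 (-0.20 to 0.83) and 0.22 (-0.58 to 1.03), that of Cebpb 0.30 (-0.18 to 0.78). Ddit3 and Atf3 had the widest intervals, 0.73 (-0.54 to 2.01) and 1.65 (-0.99 to 4.30). The intervals for 8 genes therefore include both no difference and differences of more than 0.5 in size.

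Between the lines in the same medium, Nupr1 stood apart in both. It was lower in tumor cells by a log2 change of -1.72 ± 0.30 without arginine (adjusted p = 0.000528) and of -1.56 ± 0.30 with arginine (adjusted p = 0.00135). Trib3 was higher in tumor cells without arginine, by 0.74 ± 0.27 (adjusted p = 0.038), and did not pass with the experiment as a block (adjusted p = 0.0616). Its other probe sets gave 0.91 (adjusted p = 0.00558, and adjusted p = 0.00803 with the block) and 0.69 (adjusted p = 0.041, and adjusted p = 0.071 with the block). It lost the call without any 1 of 5 arginine-deficient arrays (adjusted p of 0.0572 to 0.16), and was at 0.39 without the normal one of experiment 2. With arginine, 8 of the 9 genes did not pass. The log2 differences on the main probe sets were all below 0, but the second probe set of Cebpg gave 0.41 and 1 of Trib3 gave 0.32, and averaged over probe sets Cebpg was at 0.15 and Trib3 at 0.04. These counts of 2 of 9 genes without arginine and 1 of 9 with arginine compare with 40.7% of all tested probe sets without arginine and 34.6% with it that differed in either direction.

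On the main probe sets, the order of the means of the 4 groups was not the same for all genes, and most of its steps were not set by these data. For Atf4, Atf3, Ddit3, Cebpb, Trib3 and Chac1 it ran, high to low, arginine-deficient tumor, arginine-deficient normal, arginine-sufficient normal, arginine-sufficient tumor cells. For Trib3 the first and second steps passed (0.74 and 2.22) and for Chac1 the second (1.38), while no neighbours of Atf4, Atf3, Ddit3 or Cebpb differed at the threshold. The first step was 0.03 for Atf4 and Chac1 and 0.02 for Ddit3, and it turned its sign when single arrays were left out. On 1 of the other probe sets of Trib3, arginine-sufficient tumor cells (mean log2 signal 8.93) were above arginine-sufficient normal cells (8.61). For Atf5 and Cebpg arginine-deficient normal cells came first, and the step that passed was the one between arginine-deficient tumor and arginine-sufficient normal cells, 0.86 for Atf5 (adjusted p = 0.0188) and 0.78 for Cebpg (adjusted p = 0.0175), a contrast in which 40.6% of all tested probe sets differed. On the second probe set of Cebpg the order was another one, with mean log2 signals of 8.73 in arginine-deficient tumor, 8.21 in arginine-deficient normal, 8.01 in arginine-sufficient tumor and 7.60 in arginine-sufficient normal cells. Nupr1 had the same order of means as Atf5 and Cebpg on their main probe sets, but other steps passed. Its arginine-deficient tumor cells and arginine-sufficient normal cells were not told apart (0.27, adjusted p = 0.503), and the steps on either side passed.

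Over the 12 arrays, the log2 signals of all 36 pairs of the 9 genes correlated above 0, with Pearson's r of 0.50 to 0.97 and a median of 0.78. These values describe arrays that share media, lines and scan days, and they carry no test. Atf4 was most like Atf5 (0.97), then Chac1 and Eif4ebp1 (0.93 each), the last encoding a brake on cap-dependent translation. Trib3 was most like Aars1, the alanyl-tRNA synthetase (0.96), Chac1 (0.95) and Med8, a Mediator subunit (0.94). Nupr1 was most like Casp12, a caspase of the endoplasmic reticulum (0.98), Ddr2, a collagen receptor, and Slc38a2, an amino acid transporter (0.96 each). Cebpg was most like Vegfa, an angiogenic growth factor (0.98), Atf3 most like Them4 (0.98), Ddit3 most like Gtpbp2 (0.92) and Cebpb most like Sertad1 (0.90). Chac1 was most like Ghitm (0.96). With the mean of each line removed, Cebpg and Nupr1 were at 0.98, and the genes most like Chac1 were Slc7a1, a transporter of arginine and other basic amino acids (0.98), and the tRNA synthetases Wars1 and Yars1 (0.97 each).

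**Figure D3:**
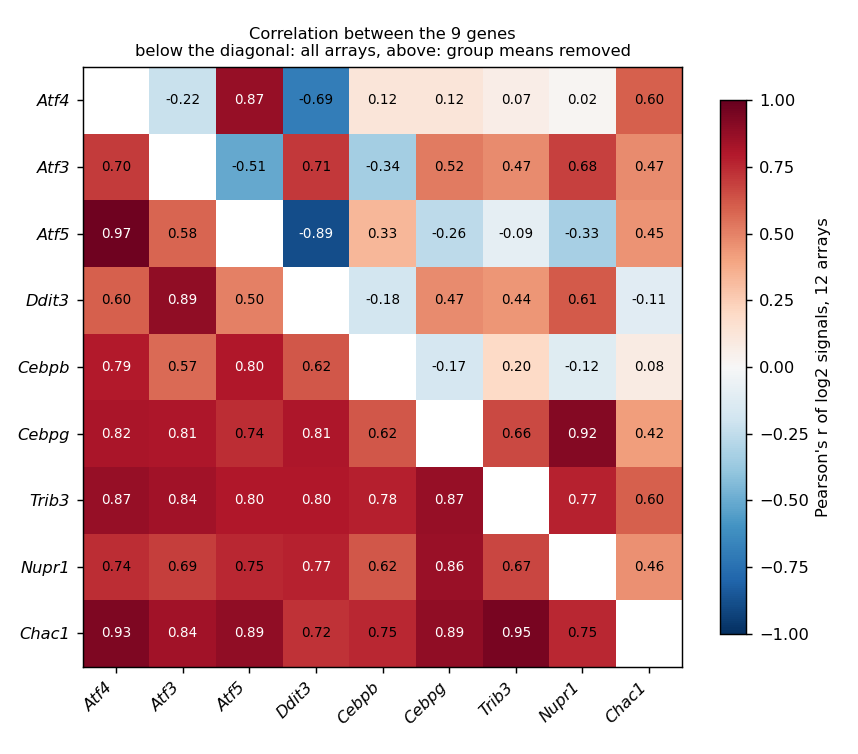
Pearson's r between the log2 signals of each pair of the 9 genes over 12 arrays, below the diagonal as measured and above it with each group's mean removed, so that only differences among cultures of the same group remain. Below the diagonal all 36 values are above 0; above it, 24 are, with Cebpg and Nupr1 at 0.92 and Atf5 and Ddit3 at -0.89.

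Among cultures of the same line and medium, the 9 genes did not vary as one. With each group's mean removed, 24 of the 36 correlations were above 0, and they ranged from -0.89 to 0.92 with a median of 0.26. Atf4 and Atf5 kept together at 0.87, and so did Cebpg and Nupr1 (0.92), Trib3 and Nupr1 (0.77) and Atf3 and Ddit3 (0.71). Atf5 and Ddit3 ran opposite at -0.89, and Atf4 and Ddit3 at -0.69. Without experiment 2 of normal cells, 10 arrays, these values were 0.58 for Atf4 and Atf5, 0.89 for Cebpg and Nupr1, 0.69 for Trib3 and Nupr1, 0.94 for Atf3 and Ddit3, -0.80 for Atf5 and Ddit3 and -0.30 for Atf4 and Ddit3. Other pairs moved more: Atf4 and Chac1 went from 0.60 to -0.18, and Ddit3 and Chac1 from -0.11 to 0.56. Atf3 was above the expressed threshold on 5 of the 12 arrays, and the part of its low signals in its correlations was not tested. The pairs share arrays, and the arrays are few.

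The other genes of the pathway were read from lists written from general knowledge, with earlier results of these data known. Of the ATF4 targets, 32 were tested, many of them genes for amino acid transport, for synthesis of serine, asparagine and cysteine or for charging tRNAs, and others stress and growth regulators such as Gadd45a, Ddit4 and Vegfa. In tumor cells 18 rose (0.965% of all tested probe sets) and 0 fell, with 31 above 0 and a median log2 change of 1.14. In normal cells 4 rose (0.133% of all tested) and 0 fell, with 32 above 0 and a median of 0.87. With the block, 28 rose in tumor cells (4.79% of all tested) and 24 in normal cells (1.39% of all tested). The largest among those that passed were Ppp1r15a, the regulatory subunit that returns eIF2 to its active form, with 2.17 ± 0.31 in tumor cells (adjusted p = 0.00487) and 0.99 ± 0.31 in normal cells (adjusted p = 0.324), and Cth, which makes cysteine, with 1.88 ± 0.37 in tumor cells (adjusted p = 0.0244) and 1.46 ± 0.37 in normal cells (adjusted p = 0.191). Next came Phgdh, the first enzyme of serine synthesis, with 1.69 ± 0.24 in tumor cells (adjusted p = 0.00502) and 1.02 ± 0.24 in normal cells (adjusted p = 0.155), and Herpud1, of endoplasmic reticulum-associated degradation, with 1.63 ± 0.27 in tumor cells (adjusted p = 0.0116) and 1.58 ± 0.27 in normal cells (adjusted p = 0.0439). The other 3 that rose in normal cells were Psph, Mthfd2 and Slc7a1, with 1.37, 1.35 and 1.34, and they too rose in tumor cells.

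Of 18 tested genes for the eIF2 kinases, eIF2 and its exchange factor, 2 rose in tumor cells and 0 in normal cells, and none fell. Of all tested probe sets, 0.965% rose in tumor cells and 0.133% in normal cells. The medians of the 18 genes were 0.09 in tumor cells and 0.04 in normal cells, close to the median over all tested probe sets. The genes of this list that rose were Ppp1r15a, which is on that of CHOP targets too, and Eif2b3, a subunit of the eIF2 exchange factor, with 1.13 ± 0.22 in tumor cells (adjusted p = 0.0207) and 0.51 ± 0.22 in normal cells (adjusted p = 0.471). Of 22 other bZIP factors tested, 2 rose in tumor cells and 0 in normal cells, beside the same shares over all tested. The medians were 0.20 in tumor cells and 0.22 in normal cells. The 2 that rose were Nfil3, a factor known from circadian and immune control, with 1.29 ± 0.19 in tumor cells (adjusted p = 0.00515) and 0.44 ± 0.19 in normal cells (adjusted p = 0.482), and Mafk, a small Maf protein, with 0.84 ± 0.20 in tumor cells (adjusted p = 0.0496) and -0.16 ± 0.20 in normal cells (adjusted p = 0.864). For neither did the difference of response pass (adjusted p = 0.824 each).

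Targets of XBP1 and ATF6, the arms of the unfolded protein response that do not run through eIF2, were tested as a neighbouring pathway. Of 22 such genes, 0 rose and 0 fell in either line, with medians of 0.07 in tumor cells and 0.06 in normal cells. Over all tested probe sets, 0.965% rose and 0.944% fell in tumor cells, and 0.133% rose and 0.0308% fell in normal cells. At such shares, 0 of 22 does not set these genes apart from others. Herpud1, also of endoplasmic reticulum-associated degradation, was counted with the ATF4 targets alone. With the block, 2 rose in tumor cells (4.79% of all tested) and 1 fell in normal cells (1.03% of all tested). Of 5 tested CHOP targets and relatives of Trib3, 1 rose in tumor cells, Ppp1r15a (0.965% of all tested), and 0 in normal cells (0.133% of all tested). Their median log2 change was 0.09 in tumor cells, with 3 above 0, and 0.67 in normal cells, with 4 above 0. Over all tested probe sets the medians were -0.05 and -0.04.

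**Figure D4:**
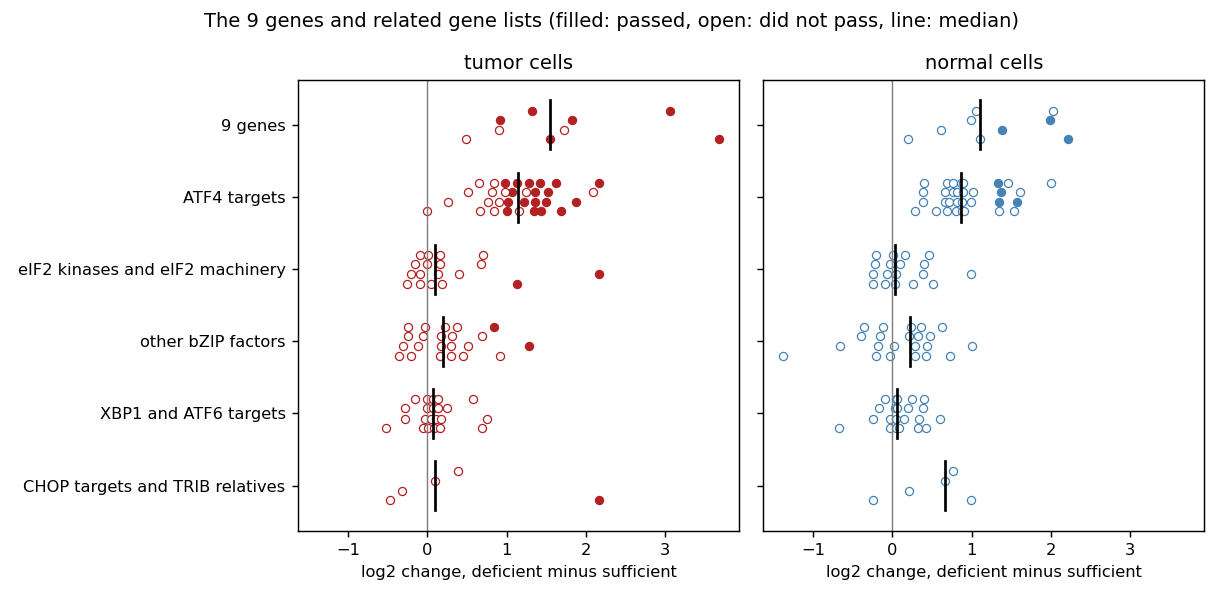
Log2 change, arginine-deficient minus arginine-sufficient, of the 9 genes and of each tested gene of the related lists, with 1 probe set per gene, tumor cells left and normal cells right; filled points passed at an adjusted p under 0.05 and the line is the list's median. The ATF4 targets have medians of 1.14 in tumor cells and 0.87 in normal cells. In the same order, the medians are 0.09 and 0.04 for the eIF2 genes, and 0.20 and 0.22 for other bZIP factors. They are 0.07 and 0.06 for XBP1 and ATF6 targets, and 0.09 and 0.67 for CHOP targets and relatives of Trib3. Single genes lie further from 0, such as Ppp1r15a at 2.17 in tumor cells and Crem at -1.38 in normal cells. The row of the 9 genes includes Atf3, so its medians are 1.55 in tumor cells and 1.1 in normal cells, against 1.44 and 1.08 without Atf3.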

How the data were processed

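The 12 arrays were measured with RAE230A chips (15923 probe sets, 57 of them controls). The intensity values are the signals that the authors deposited, which Microarray Suite 5.0 computes for each array by itself out of its matched and mismatched probes, linear and scaled so that the trimmed mean is shared (500.1 to 500.2). The deposited run records, which hold text of other kinds, were read for scan day, chip lot and culture notes alone. Arrays give no counts, so their number limits the precision.

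Signals below 1 (9 to 24 per array) were set to 1 and log2 was taken. Probe sets among the highest 54% of an array in at least 3 arrays were tested with limma 3.58.1 in R 4.3.3 (1 mean per group, empirical Bayes with an intensity trend, 8 residual degrees of freedom), with Benjamini-Hochberg adjustment over all 9745. The fit was tested on simulated data. A gene with several probe sets was read from that with the highest mean signal, and all its probe sets are given. Named genes are the 9, the up to 4 genes of each list with the largest changes among those that passed, and the genes most like each of the 9. The other 3 ATF4 targets that rose in normal cells were named after their values were seen. The 9 genes and the lists were chosen with earlier results of these data known.

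The arrays of an experiment were paired from the study's array codes and the notes in the run records. With group means removed, partners correlated at 0.383 to 0.56 in 5 of 6 pairs and at 0.037 in experiment 2 of tumor cells, where both run records carry the same culture note. There alone, the arginine-deficient array was more like an arginine-sufficient array of another experiment (0.275) than its partner. The block fit of the changes within lines and of their difference has 4 residual degrees of freedom. For levels between the lines, the block was instead a correlation shared by the arrays of an experiment, with 1 value estimated over all tested probe sets. Alternatives covered the filter, a floor, an offset of 16, quantile normalization, median centring, no trend, a plain linear model, blocks for experiment, scan day or chip lot, 1 cell line alone, averaging a gene's probe sets and dropping each array in turn. Promoter windows came from RefSeq (GRCr8). Python 3.11.15 with matplotlib 3.10.9 drew the figures.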

Additional observations from a re-analysis of the deposited data

How the results depend on the processing

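The count of the 9 genes that passed in tumor cells, 6 with Atf3 and 5 without it, was, Atf3 included, 1 with a plain linear model and 1 without experiment 2 of tumor cells, and 2 to 7 with 1 array left out. In normal cells the count of 3 was 0 with a plain linear model, 0 in a fit of that line alone, 7 with the experiment block and 1 without experiment 2 of tumor cells, and 1 to 4 with 1 array left out. The count for the difference of response was 0 in every setting run, leave-one-out included (0 to 0). The count between lines with arginine, 1, was 2 without experiment 2 of normal cells, where Ddit3 passed, and 1 to 1 with 1 array left out. Without arginine, the count of 2 was 1 with no filter, quantile normalization, no trend, a plain linear model, the experiment as a block, or without experiment 2 of tumor or of normal cells, and 1 to 2 with 1 array left out. No within-line change of the 9 genes turned its direction in any setting. Values that did were in the comparisons between lines. With the settings used throughout, they lay between -0.28 (Cebpg without arginine) and 0.22 (the difference of response of Atf5), and none passed. For the difference of response they were Atf5 (-0.02 with the scan day and -0.09 with the chip lot as a block) and Chac1 (-0.13, -0.12, and -0.22 without experiment 2 of normal cells). With arginine they were Cebpg and Trib3 (0.15 and 0.04 over all probe sets) and Chac1 (0.15 without experiment 2 of normal cells). Without arginine they were Atf4 (-0.09 with quantile normalization), Ddit3 (-0.42 without experiment 2 of normal cells), Cebpg (0.12 over all probe sets) and Chac1 (-0.03 with quantile normalization, -0.04 without experiment 2 of tumor cells and -0.07 without that of normal cells). With single arrays left out, the difference of response ranged from -0.09 to 0.47 for Atf5, -0.39 to 0.04 for Cebpg, -0.44 to 0.16 for Nupr1 and -0.12 to 0.40 for Chac1. Levels between lines then ranged, with arginine, from -0.21 to 0.00 for Cebpg, -0.19 to 0.00 for Trib3 and -0.36 to 0.15 for Chac1. Without arginine they ranged from -0.03 to 0.10 for Atf4, -0.42 to 0.36 for Ddit3, -0.02 to 0.17 for Cebpb and -0.07 to 0.16 for Chac1. The cause was not tested. Leaving out both arrays of experiment 2 was chosen after the data were seen, and scan day and chip lot could not be fitted as blocks between lines.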
